A study of Mus musculus with 4 samples.

Results

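The transcripts of 10 genes that mark dendritic cell subsets were followed in cells collected as tumor-associated macrophages (TAMs) from NB9464 tumors. The genes were *Xcr1*, *Clec9a*, *Batf3*, *Itgae*, *Cd209a*, *Clec10a*, *Siglech*, *Fscn1*, *Flt3* and *Zbtb46*. They were taken by symbol from the 54532 rows of the count table, as genes of conventional type 1 (cDC1), conventional type 2 (cDC2), plasmacytoid (pDC) and migratory dendritic cells. NB9464 is a mouse neuroblastoma line in which *MYCN* is amplified. Mice were implanted with NB9464 cells, and no drug treatment is named for them. TAMs were collected on day 40 with magnetic beads against CD11b and F4/80. In Syk MC-KO mice *Syk* is floxed and Cre recombinase is driven by the lysozyme M gene (*Lyz2*), which is active in macrophages, neutrophils and part of the dendritic cells, and Syk MC-WT mice were the controls. PolyA-selected RNA was sequenced, with M7 and M8 as the Syk MC-WT libraries and M9 and M10 as the Syk MC-KO libraries, n = 2 each. The labels name BMDMs (bone marrow-derived macrophages) where RNA extraction is described, and the series title names an adoptive transfer, so the sources differ on the origin of the cells. Whether the libraries of a genotype came from separate mice is not stated. The p-values therefore rest on the variation between these libraries only, with variance modelled across genes.

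Dendritic cells take up, process and present antigen to T cells. They arise in the bone marrow from progenitors that depend on the receptor Flt3. cDC1 require Batf3 and Irf8 and cross-present antigen to CD8+ T cells, cDC2 depend largely on Irf4 and mainly prime CD4+ T cells, and pDC release type I interferon after viral nucleic acids are sensed. On maturation, conventional dendritic cells switch on *Fscn1* and *Ccr7* and migrate to lymph nodes. In tumors, several of these genes are also read in monocytes, macrophages or stromal cells, so a transcript in bulk RNA does not by itself name a cell.

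Total counts ranged from 20755886 to 23518045 per library, and libraries of a genotype differed by more than sampling noise. Mitochondrial genes took 2.20% and 2.34% of counts in M7 and M8, against 6.00% and 15.9% in M9 and M10. *Syk*, the targeted gene, had 765 and 569 counts in M7 and M8 and 4033 and 2944 in M9 and M10, so its level was higher where the label says Syk MC-KO (log2 fold change 2.80 ± 0.19 SE, adjusted p = 0.000674). Every direction is therefore given for the libraries as labelled. *Lyz2* had 8109, 5115, 178 and 371 counts in M7, M8, M9 and M10, and its close copy *Lyz1* had 27, 23, 6994 and 4307, though reads of such copies are hard to divide. Levels are TMM-normalized CPM (counts set to a fixed library total after multiplying each total by its TMM factor), and the test was edgeR's quasi-likelihood F-test, with p-values adjusted by Benjamini-Hochberg over 16451 genes and a threshold of 0.05. The level of 3 counts, taken as the smallest detectable signal, lay between 0.109 and 0.163 CPM and covers counting error only.

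Of the 10 genes, 5 rose in the libraries labelled Syk MC-KO (*Xcr1*, *Batf3*, *Flt3*, *Cd209a* and *Clec10a*), none fell, 4 did not pass the threshold (*Clec9a*, *Itgae*, *Fscn1* and *Zbtb46*), and *Siglech* had too few counts to be tested. Over all 16451 genes tested, 22.7% were higher and 16.7% were lower (39.4% in all). On the TMM scale, in 8 of the 9 tested genes both Syk MC-KO libraries lay above both Syk MC-WT libraries. In 1, *Zbtb46*, they lay below. Over all genes tested, 38% lay above and 37.2% below (75.2% in all). On counts divided by exon length and scaled to a library total, the groups of *Itgae* and *Clec10a* overlapped and *Fscn1* also lay below. The 9 tested genes had a median log2 fold change of 2.26 (the value of *Clec9a*), beside 0.02 over all genes tested. Some genes met the expression filter in M9 and M10 but not in both M7 and M8. They entered the test through the libraries where they were high, which favours a difference. This applies to *Xcr1*, *Clec9a*, *Flt3* and *Itgae*, so the counts and the median over the tested genes are a description only. In bulk RNA, a change in the number of cells of a type and a change in RNA per cell cannot be told apart.

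**Figure D1:**
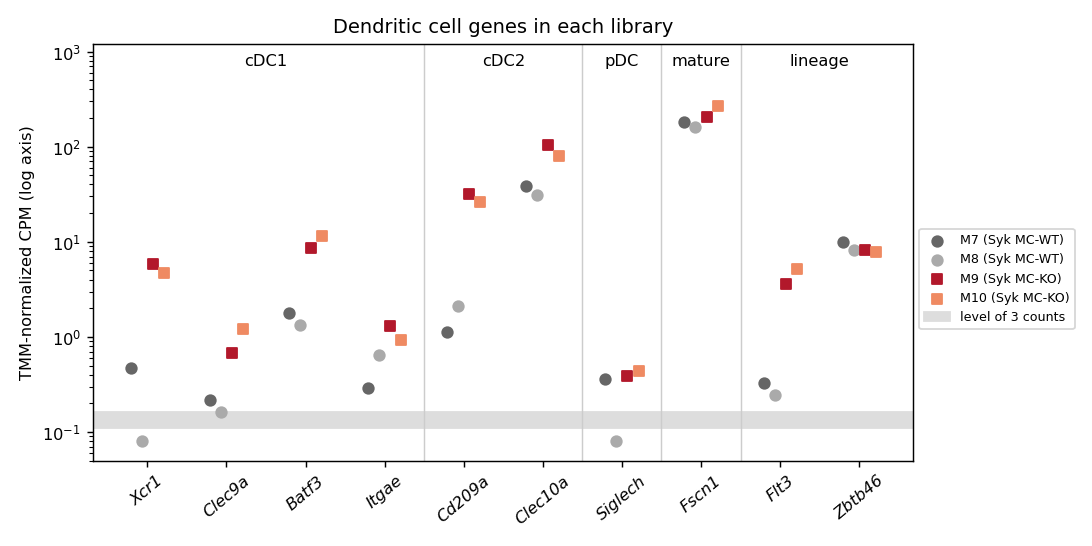
TMM-normalized CPM (log axis) of the 10 genes in the 4 libraries, with circles for M7 and M8 (Syk MC-WT), squares for M9 and M10 (Syk MC-KO) and a grey band for the level of 3 counts. *Xcr1*, *Batf3*, *Flt3*, *Cd209a* and *Clec10a* were higher in both squares than in both circles, whereas the 4 points of *Zbtb46* lay between 7.85 and 10.1 CPM.

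The abundance of the genes differed widely. On counts divided by exon length and scaled to a common total in each library, which allows genes to be compared, *Fscn1* had the highest level in each library (146 to 242) and *Clec10a* the second highest (41.1 to 78.1). *Cd209a* followed in M9 and M10 (44.3 and 27.7) but had only 2.85 and 5.14 in M7 and M8. *Batf3* lay at 3.23 to 12.0 and *Zbtb46* at 1.53 to 4.73, and the ranges of these neighbours overlapped. *Xcr1*, *Flt3*, *Clec9a*, *Itgae* and *Siglech* were low, between 0.0703 and 2.85. *Fscn1* and *Clec10a* together gave 93.8% of the counts of the 10 genes in M7 and M8, 83.5% in M9 and 85.6% in M10.

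*Flt3* (ENSMUSG00000042817, GRCm38 chr5:147330741-147400489, minus strand) encodes the receptor for Flt3 ligand on dendritic cell progenitors and conventional dendritic cells. It had 9 and 6 counts in M7 and M8 and 74 and 95 in M9 and M10. The Syk MC-WT libraries held 0.286 ± 0.0594 CPM (SD, n = 2) and the Syk MC-KO libraries 4.38 ± 1.12 CPM (SD, n = 2), without overlap. *Flt3* met the expression filter in M9 and M10 but not in both M7 and M8, which favours a difference. The log2 fold change was 3.91 ± 0.56 (SE, 95% interval 2.56 to 5.25, adjusted p = 0.00375, edgeR).

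*Zbtb46* (ENSMUSG00000027583, chr2:181387762-181459426, minus strand) encodes a zinc finger transcription factor of the committed conventional dendritic cell lineage that is also expressed by endothelial cells. It had 276, 201, 168 and 144 counts in M7, M8, M9 and M10. Its level was 10.1 and 8.18 CPM in M7 and M8 and 8.16 and 7.85 CPM in M9 and M10, and M8 and M9 nearly coincided. The log2 fold change was -0.19 ± 0.27 (SE, adjusted p = 0.607, edgeR), and its 95% interval was -0.84 to 0.46. With library size only it was -0.72 (adjusted p = 0.0814), and per exon length and library total its level was 4.73 and 3.70 in M7 and M8 and 2.11 and 1.53 in M9 and M10, lower without overlap. Endothelial markers, which can accompany *Zbtb46*, summed to 213 and 215 CPM in M7 and M8 and 160 and 156 CPM in M9 and M10, and their part in its level was not tested.

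*Batf3* (ENSMUSG00000026630, chr1:191097847-191108945, plus strand), the leucine zipper factor needed for cDC1, had 49 and 33 counts in M7 and M8 and 176 and 213 in M9 and M10. Its level rose from 1.56 ± 0.314 CPM to 10.1 ± 2.16 CPM (SD, n = 2). Both libraries labelled Syk MC-KO lay above both labelled Syk MC-WT. The log2 fold change was 2.68 ± 0.37 (SE, 95% interval 1.78 to 3.58, adjusted p = 0.00347, edgeR).

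*Xcr1* (ENSMUSG00000060509, chr9:123852315-123862029, minus strand), the chemokine receptor that marks cDC1 and binds Xcl1, had 13 and 2 counts in M7 and M8 and 119 and 86 in M9 and M10. M8 lay under the level of 3 counts, so the level in Syk MC-WT was poorly determined (0.278 ± 0.278 CPM, SD, n = 2), whereas Syk MC-KO libraries held 5.23 ± 0.772 CPM. *Xcr1* met the expression filter in M9 and M10 but not in both M7 and M8, which favours a difference. The log2 fold change was 4.19 ± 0.77 (SE, 95% interval 2.33 to 6.04, adjusted p = 0.00823, edgeR). It was 5.91 without M7 and 3.44 without M8, and passed the threshold in both cases.

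*Clec9a* (ENSMUSG00000046080, chr6:129408862-129424763, plus strand), the cDC1 receptor for actin exposed on dead cells, had 6 and 4 counts in M7 and M8 and 14 and 22 in M9 and M10. These gave 0.191 ± 0.0396 and 0.939 ± 0.367 CPM (SD, n = 2), and the log2 fold change of 2.26 ± 0.77 (SE) missed the threshold (adjusted p = 0.0582, edgeR). Without M9 it passed (2.53, adjusted p = 0.0220). The gene overlaps *Clec1b* on the same strand and shares 155 of its 3347 distinct 31-base words with it, so some of these few counts are uncertain. *Itgae* (ENSMUSG00000005947, chr11:73090583-73147446, plus strand), the integrin CD103 of cDC1 and of tissue-resident T cells, had 8, 16, 27 and 17 counts in M7, M8, M9 and M10. M8 and M10 differed by 1 count, and the log2 fold change was 1.25 (95% interval -0.47 to 2.97, adjusted p = 0.207, edgeR). Per exon length and library total the groups of *Itgae* overlapped (0.254 and 0.547 in M7 and M8, 0.629 and 0.335 in M9 and M10). *Clec9a* and *Itgae* also met the expression filter in M9 and M10 but not in both M7 and M8.

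Of the 15 genes on the cDC1 list, 13 were tested, 7 were higher, 1 was lower and 5 did not pass the threshold, with a median log2 fold change of 2.26. Of the 7, 2 met the expression filter only with M9 and M10. Scaled to macrophage markers or to pan-leukocyte genes in place of TMM, 87% or 92.1% of all genes were lower and 0.766% or 0.377% higher. Of the genes on this list, 0 were then higher and 4 or 7 were lower. Among those outside the 10 genes, *Cadm1*, an adhesion molecule of cDC1, rose from 6.48 to 58.5 CPM (log2 fold change 3.17, adjusted p = 0.000495, edgeR), and *Irf8*, the partner of Batf3 in cDC1, rose from 11.3 to 93.3 CPM (3.04, adjusted p = 0.000729). Irf8 is also made by monocytes and macrophages. *Naaa*, a lysosomal amidase, and *Wdfy4*, which is needed for cross-presentation, had log2 fold changes of 2.65 and 2.11 (edgeR adjusted p-values 0.000674 and 0.00292). *Cd8a*, carried by lymphoid cDC1 and by CD8+ T cells, had 5, 14, 11 and 0 counts in M7, M8, M9 and M10 and did not pass the threshold. The lower gene, named after its values were seen, was *Snx22* (log2 fold change -1.89, adjusted p = 0.0461, edgeR), and it did not pass without M7 or without M8.

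The region before the start of *Xcr1* is shown because its transcript had the largest fitted log2 fold change of the 9 tested genes. Those before *Cd209a*, which was close to it, and *Fscn1*, which did not pass the threshold, are shown for contrast. They are the 250 bases upstream of the RefSeq start on GRCm38.p6, at chr9:123862030-123862279 (minus strand), chr8:3748985-3749234 (minus strand) and chr5:142960105-142960354 (plus strand), with capitals for a match to any of 4 searched patterns.
Xcr1: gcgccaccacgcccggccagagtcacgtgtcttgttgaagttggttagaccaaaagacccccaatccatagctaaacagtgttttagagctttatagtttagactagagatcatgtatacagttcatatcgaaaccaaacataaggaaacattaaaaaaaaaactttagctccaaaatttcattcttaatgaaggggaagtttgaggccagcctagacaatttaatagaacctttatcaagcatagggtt
Cd209a: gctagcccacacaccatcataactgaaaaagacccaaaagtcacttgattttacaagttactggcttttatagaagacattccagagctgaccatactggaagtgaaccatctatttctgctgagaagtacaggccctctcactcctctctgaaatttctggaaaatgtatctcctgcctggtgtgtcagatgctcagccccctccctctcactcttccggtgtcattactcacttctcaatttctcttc
Fscn1: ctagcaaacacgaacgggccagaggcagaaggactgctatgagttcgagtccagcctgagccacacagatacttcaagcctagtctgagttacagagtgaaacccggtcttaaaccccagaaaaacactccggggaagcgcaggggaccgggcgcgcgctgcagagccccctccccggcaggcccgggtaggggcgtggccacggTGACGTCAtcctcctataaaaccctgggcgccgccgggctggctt
Both strands were searched for TGANTCA (AP-1, the kind of site bound by Batf factors with Jun), TGACGTCA (a cAMP response element), GAAA followed after any 2 bases by GAAA (interferon regulatory factors) and GGAA followed after any 2 bases by GAAA (Ets with interferon regulatory factors, which can overlap the former). No match lay in the windows of *Xcr1* and *Cd209a*, and that of *Fscn1* held TGACGTCA, starting 45 bases before the start. Over 32851 windows of this length, 6.75%, 1.55%, 2.98% and 2.30% held the 4 patterns in that order. GC content was 38.8% for *Xcr1*, 44.8% for *Cd209a* and 62.4% for *Fscn1*. A match of letters does not show that a factor binds, and its absence concerns only these windows.

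*Cd209a* (ENSMUSG00000031494, chr8:3743397-3748984, minus strand), a C-type lectin of cDC2 and of monocyte-derived dendritic cells that binds glycans, had 31 and 52 counts in M7 and M8 and 657 and 486 in M9 and M10. Its level was 1.62 ± 0.697 CPM in Syk MC-WT and 29.2 ± 3.83 CPM in Syk MC-KO libraries (SD, n = 2), far outside the spread of either genotype. The log2 fold change was 4.17 ± 0.35 (SE, 95% interval 3.32 to 5.02, adjusted p = 0.000898, edgeR). *Cd209a* is 1 of a cluster of related lectins, whose coding sequences were 63.2% to 71.9% identical to it, but none of its 31-base words was shared with another gene. It made 13.7% and 25% of the counts of the *Cd209a* to *Cd209g* genes in M7 and M8 and 54.2% and 51.1% in M9 and M10. The relatives *Cd209b*, *Cd209d*, *Cd209e*, *Cd209f* and *Cd209g* also rose, with log2 fold changes of 2.07, 2.04, 2.39, 3.80 and 3.89 (edgeR adjusted p-values 0.0179, 0.0101, 0.0116, 0.00303 and 0.0351). *Cd209f* (13, 8, 135 and 88 counts) and *Cd209g* (5, 0, 37 and 21 counts) met the expression filter only with M9 and M10. *Cd209c* had 63, 72, 66 and 33 counts, and its groups overlapped (log2 fold change -0.06, 95% interval -1.25 to 1.13, adjusted p = 0.934, edgeR).

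*Clec10a* (ENSMUSG00000000318, chr11:70156197-70170834, plus strand), the galactose-type lectin MGL1 of cDC2 and alternatively activated macrophages, had 1068 and 761 counts in M7 and M8 and 2120 and 1474 in M9 and M10. It rose from 35.0 ± 5.64 to 91.6 ± 16.0 CPM (SD, n = 2), with a log2 fold change of 1.39 ± 0.20 (SE, 95% interval 0.90 to 1.88, adjusted p = 0.00389, edgeR). With library size only it was 0.86 (adjusted p = 0.0305), and per exon length and library total the groups overlapped (53.7 and 41.1 in M7 and M8, 78.1 and 45.8 in M9 and M10). Its paralog *Mgl2*, which encodes MGL2, had 1250, 788, 9944 and 5495 counts and rose from 38.8 ± 9.55 to 391 ± 130 CPM (log2 fold change 3.33 ± 0.31 SE, adjusted p = 0.00115, edgeR). For every 100 *Mgl2* counts there were 85.4 and 96.6 *Clec10a* counts in M7 and M8 but 21.3 and 26.8 in M9 and M10. The genotypes did not overlap in this ratio, for which the exact two-sided permutation test of 2 against 2 cannot go below 0.333. Counted together, the pair rose with a log2 fold change of 2.71 (adjusted p = 0.00152, edgeR).

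The sequences of these paralogs bear on how their reads were divided, since *Clec10a* shares 455 of its 3064 distinct 31-base words with other genes, 419 of them with *Mgl2*. The first 90 bases below stand unchanged in both coding sequences, at bases 279 to 368 of *Clec10a* and 327 to 416 of *Mgl2*. Over the whole coding sequences, 88.55% of the 917 aligned bases were identical. The other lines are the least alike stretch of 90 bases without a gap, with capitals at the 8 bases that differ. They lie at bases 48 to 137 of *Clec10a* and 96 to 185 of *Mgl2*, and stretches across a gap were left out. The 8 bases lie near its start. The coding sequences as a whole were less alike than this stretch, so it is not where the pair differs most.
Clec10a and Mgl2: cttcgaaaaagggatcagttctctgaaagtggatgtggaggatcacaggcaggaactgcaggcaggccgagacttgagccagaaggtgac
Clec10a: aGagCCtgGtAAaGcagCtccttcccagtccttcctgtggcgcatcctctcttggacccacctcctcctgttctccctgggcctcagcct
Mgl2: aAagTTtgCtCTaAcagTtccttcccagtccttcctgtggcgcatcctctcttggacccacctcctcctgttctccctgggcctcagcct
A read that lies inside the first stretch could come from either gene. How the division of such reads affected the ratio was not tested.

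**Figure D2:**
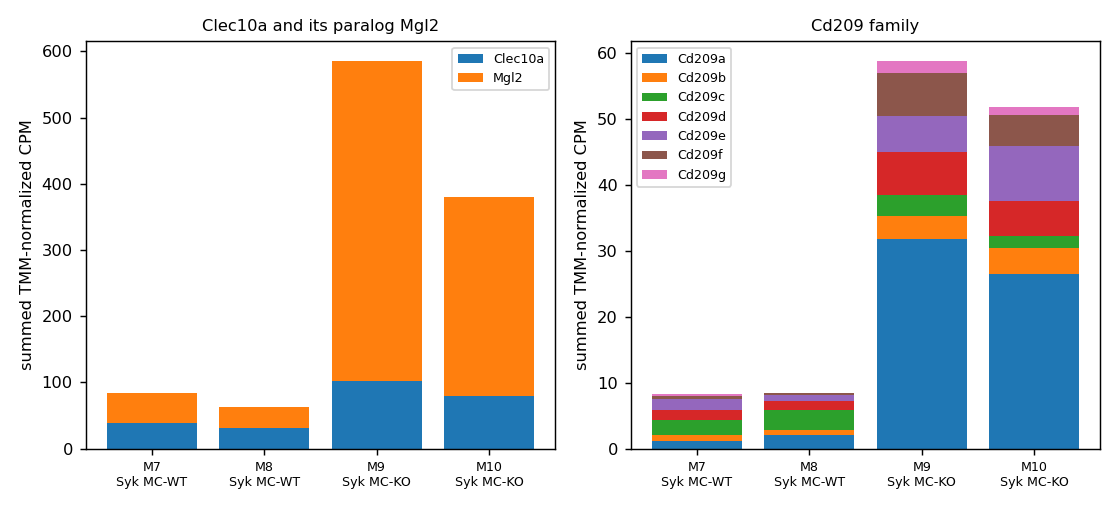
Summed TMM-normalized CPM of *Clec10a* and *Mgl2* (left) and of the *Cd209* family (right) in the 4 libraries, stacked by gene. *Clec10a* had 85.4 and 96.6 counts for every 100 of *Mgl2* in M7 and M8 and 21.3 and 26.8 in M9 and M10, and *Cd209a* made over 51% of its family in M9 and M10 but at most 25% in M7 and M8.

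Of the 12 genes on the cDC2 list, 10 were tested, 7 were higher, 1 was lower and 2 did not pass the threshold (median log2 fold change 2.21). With both marker scalings 0 were higher and 4 were lower, where 87% (macrophage) and 92.1% (pan-leukocyte) of all genes were lower. *Irf4*, a factor of cDC2 that is also induced in activated lymphocytes and macrophages, rose from 0.356 to 6.22 CPM (log2 fold change 4.12, adjusted p = 0.00418, edgeR), and of the 7 it alone met the expression filter only with M9 and M10. *Sirpa*, the CD47 receptor used to gate cDC2 and carried by macrophages as well, rose from 59.9 to 528 CPM (3.14, adjusted p = 0.00115, edgeR). The lower gene, named after its values were seen, was *Esam*, which also stands on the endothelial list (log2 fold change -1.06, adjusted p = 0.0112, edgeR), and it did not pass without M7 or without M8.

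*Siglech* (ENSMUSG00000051504, chr7:55768178-55778925, plus strand), the sialic acid-binding lectin that marks mouse pDC and some microglia and macrophages, had 10, 2, 8 and 8 counts in M7, M8, M9 and M10. It did not pass the expression filter. With all genes kept, its log2 fold change was 0.84 (95% interval -1.69 to 3.37, adjusted p = 0.664, edgeR), so a difference was not detectable at this depth. Of the 16 genes on the pDC list, 10 were tested, 7 were higher, 1 was lower and 2 did not pass the threshold (median log2 fold change 2.20). Of the 7, 3 met the expression filter only with M9 and M10, which favours a higher call. The number higher was 3 without M7 and 2 without M8, and 3 when libraries were scaled by size only, and with both marker scalings it was 0, with 4 lower. Scaled to macrophage markers or to pan-leukocyte genes, 87% or 92.1% of all genes were lower. On the TMM scale, *Tlr9* and *Tlr7*, endosomal receptors of nucleic acids in pDC and other myeloid cells, rose from 1.37 to 16.6 CPM and from 6.46 to 72.3 CPM (log2 fold change 3.59 and 3.48, adjusted p = 0.000972 and 0.00139, edgeR). *Bst2*, an interferon-induced surface protein, had a log2 fold change of 0.99 (adjusted p = 0.0239, edgeR). *Runx2*, a transcription factor of pDC and of osteoblasts, fell from 157 to 65.7 CPM (log2 fold change -1.25, adjusted p = 0.0025, edgeR), and *Tcf4*, the factor that sets pDC identity and is also read in stromal cells, had 508 and 405 CPM (adjusted p = 0.273, edgeR). *Cd300c*, *Klk1* and *Ptcra* had between 0 and 3 counts in each library, too few to compare.

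*Fscn1* (ENSMUSG00000029581, chr5:142960343-142973185, plus strand) encodes fascin, an actin-bundling protein that mature dendritic cells share with fibroblasts, endothelial cells, neurons and many tumor cells. It had 5002, 3981, 4184 and 4879 counts in M7, M8, M9 and M10. On the TMM scale its level was 172 ± 14.4 CPM in Syk MC-WT and 234 ± 44.4 CPM in Syk MC-KO libraries (SD, n = 2), with a log2 fold change of 0.45 ± 0.19 (SE, 95% interval -0.02 to 0.91, adjusted p = 0.114, edgeR). Without M9 it passed the threshold (0.54, adjusted p = 0.0176), and scaled by library size only its log2 fold change was -0.10 (adjusted p = 0.701). Per exon length and library total, it had 242 and 207 in M7 and M8 and 148 and 146 in M9 and M10, so its direction turned with the scale. Fibroblast markers summed to 12361 and 14247 CPM in M7 and M8 and 3999 and 4876 CPM in M9 and M10, and their part in the level of *Fscn1* was not tested.

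Other genes of mature and migratory dendritic cells were read beside *Fscn1*. Of the 17 genes on that list, 16 were tested, 9 were higher, 1 was lower and 6 did not pass the threshold (median log2 fold change 1.20). Scaled to macrophage markers or to pan-leukocyte genes, 0.766% or 0.377% of all genes were higher and 87% or 92.1% lower. Of the genes on this list, 2 were then higher and 8 or 9 were lower. *Ccl17* and *Ccl22*, ligands of Ccr4 that mature dendritic cells and alternatively activated macrophages release, had the largest values. *Ccl17* had 17, 15, 1213 and 570 counts (log2 fold change 6.18 ± 0.42 SE, adjusted p = 0.000674, edgeR), and *Ccl22* had 34, 20, 1463 and 1033 (5.94 ± 0.28 SE, adjusted p = 0.000486, edgeR). *Ccr7*, the receptor that guides migration to lymph nodes, rose from 1.55 to 16.3 CPM (3.39, adjusted p = 0.000941, edgeR), and *Cd83*, a maturation marker, rose from 9.59 to 80.6 CPM (3.07, adjusted p = 0.00232, edgeR). *Samsn1*, an adaptor protein, had a log2 fold change of 3.37 (adjusted p = 0.00154, edgeR). *Cacnb3*, a calcium channel subunit, fell from 58.0 to 29.3 CPM (log2 fold change -0.98, adjusted p = 0.00656, edgeR) but did not pass without M8, and *Il15ra*, which presents interleukin 15, had a log2 fold change of -0.27 (adjusted p = 0.545, edgeR).

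Genes of the dendritic cell lineage at large were placed beside *Flt3* and *Zbtb46*. Of 12, all tested, 8 were higher, 0 were lower and 4 did not pass the threshold (median log2 fold change 2.51). Scaled to macrophage markers or to pan-leukocyte genes, 0.766% or 0.377% of all genes were higher and 87% or 92.1% lower. Of these lineage genes, 1 was then higher and 4 or 5 were lower. *Itgax*, which encodes CD11c of dendritic cells and many macrophages, rose from 5.80 to 167 CPM (4.84 ± 0.24 SE, adjusted p = 0.000486, edgeR). *Id2*, a repressor needed for cDC1, rose from 14.4 to 157 CPM (3.44, adjusted p = 0.00103, edgeR), and *Kmo*, an enzyme of tryptophan breakdown, and *Csf2rb*, the shared chain of the GM-CSF receptor, had log2 fold changes of 3.69 and 3.17 (edgeR adjusted p-values 0.00131 and 0.000653). Of 10 ligands, adaptors and receptors that act with these genes, 8 were tested on the TMM scale. Of these, 5 were higher, 0 were lower and 3 did not pass the threshold. Over all genes tested, 22.7% were higher and 16.7% lower on that scale. *Tyrobp* and *Fcer1g*, adaptors that signal through Syk, had log2 fold changes of 3.21 and 3.64 (edgeR adjusted p-values 0.00136 and 0.000716), *Cdh1*, which encodes E-cadherin, of 4.08 (adjusted p = 0.000729) and *Csf1r*, the macrophage growth factor receptor, of 2.61 (adjusted p = 0.00167). *Stat3* had a log2 fold change of -0.30 (adjusted p = 0.211, edgeR). Scaled to macrophage markers, which include *Csf1r*, the values of *Tyrobp*, *Fcer1g*, *Cdh1* and *Csf1r* were 0.36, 0.85, 1.20 and -0.18, none past the threshold. Scaled to pan-leukocyte genes they were -0.33, 0.15, 0.53 and -0.88, and *Csf1r* was then lower (adjusted p = 0.0267, edgeR). *Stat3* was lower with both scalings (-3.14 and -3.83).

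**Figure D3:**
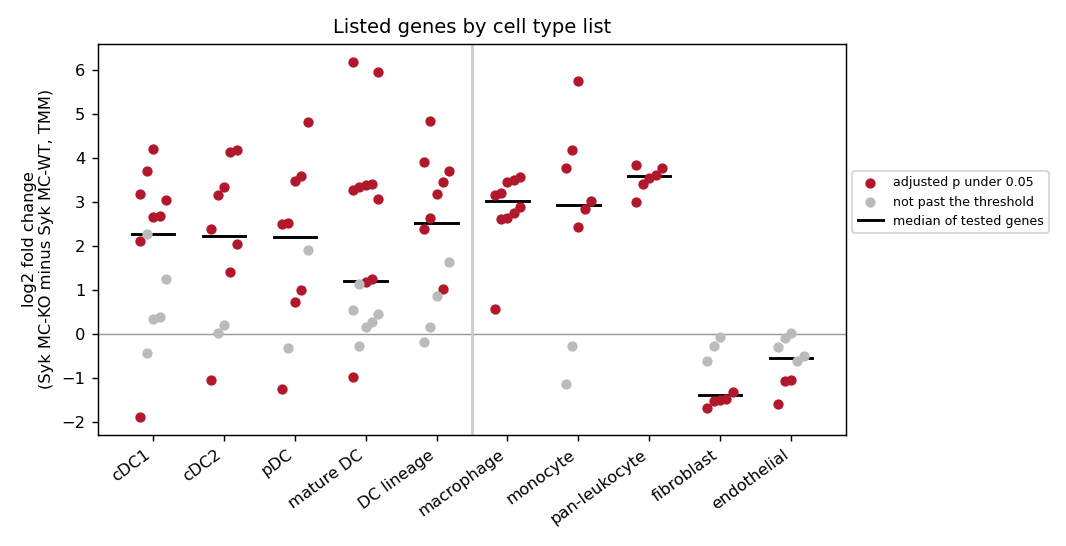
Log2 fold changes (libraries labelled Syk MC-KO minus Syk MC-WT, TMM scale) of the tested genes on 5 dendritic cell lists and 5 lists of other cells, with red points for adjusted p under 0.05, grey points for genes not past it and black bars for medians. The dendritic cell lists had medians of 1.20 to 2.51, the macrophage and pan-leukocyte lists 3.01 and 3.57, and the fibroblast list -1.40.

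Markers of several other cell types rose with the dendritic cell genes, whereas the fibroblast, endothelial and mast cell lists held lower genes and no higher ones. Over all genes tested, 22.7% were higher and 16.7% lower. Each of the 10 macrophage markers rose (median log2 fold change 3.01, range 0.57 to 3.57) and summed to 1135 and 803 CPM in M7 and M8 and 9531 and 5702 CPM in M9 and M10. All 6 pan-leukocyte genes were higher (median 3.57, sums 272 to 363 CPM in M7 and M8 and 3101 to 4325 CPM in M9 and M10). Higher were 6 of 8 monocyte (sums 537 to 623 against 1114 to 1660 CPM), 6 of 6 tested neutrophil (29.7 to 42.7 against 233 to 465 CPM) and 6 of 8 T cell markers (4.80 to 9.81 against 35.8 to 58.3 CPM), and none of these lists had a lower gene. Of those higher, 5 T cell markers and 1 monocyte marker met the expression filter only with M9 and M10, which favours a higher call. Among tested markers, 1 of 4 for NK cells and 1 of 4 for B cells were higher, which is near the share over all genes. Of 4 plasma cell markers 3 were higher and 1 was lower. Of 3 mast cell and basophil markers, 0 were higher and 1 was lower. *Mcpt8* had 0, 0, 1 and 0 counts in M7, M8, M9 and M10 and *Fcer1a* had 11, 8, 0 and 0, and neither was tested. Of 8 fibroblast markers 5 were lower, and of 8 endothelial markers 3 were lower. The fibroblast markers summed to 12361 and 14247 CPM in M7 and M8, above the macrophage sums there. In M9 and M10 they summed to 3999 and 4876 CPM, below the macrophage sums. The groups thus differed in the balance of fibroblast and macrophage transcripts, and values are not those of macrophages alone. Of 4 tested tumor cell markers 2 were higher, and *Th* and *Dbh* were at 0 in the 4 libraries. Of 4 epithelial markers 3 were higher. Among the markers called higher, 1 for B cells, 2 for plasma cells, 2 for epithelial cells and 1 for tumor cells also met the filter only with M9 and M10. The part of these cells in the dendritic cell values was not tested.

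To see the 10 genes relative to the leukocyte signal, libraries were also scaled to the geometric mean of the 10 macrophage markers or of the 6 pan-leukocyte genes. These scalings moved the median log2 fold change of all tested genes to -2.78 and -3.47. With them 0.766% and 0.377% of all genes were higher, and 87% and 92.1% were lower. None of the 9 tested genes was then higher. Relative to the macrophage markers, *Zbtb46* (log2 fold change -2.97), *Fscn1* (-2.30) and *Clec10a* (-1.42) fell (adjusted p = 6.73e-06, 9.77e-05 and 0.00883, edgeR). Relative to pan-leukocyte genes these 3 had -3.67, -3.01 and -2.12, and *Itgae* also passed with -2.33 (adjusted p = 0.0373, edgeR).

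*Xcr1*, *Flt3* and *Cd209a* stayed above 0 under both scalings (1.54, 1.23 and 1.27 relative to macrophage markers and 0.79, 0.50 and 0.61 relative to pan-leukocyte genes) but did not pass the threshold, and the interval of *Cd209a* relative to macrophage markers was -0.06 to 2.61. *Batf3* lay at -0.029 and -0.75, and *Clec9a* at -0.39 and -1.12, also not past it. For every 1000 counts of *Ptprc*, which encodes the leukocyte protein CD45 and served as a denominator, there were 35.0 and 90.8 *Cd209a* counts in M7 and M8 and 129 and 137 in M9 and M10. The same ratio for *Batf3* was 55.4 and 57.6 against 34.4 and 60.1, which overlapped, and for *Zbtb46* 312 and 351 against 32.9 and 40.7. For every 1000 counts of *Itgax* instead, there were 163 and 452 *Cd209a* counts in M7 and M8 and 195 and 155 in M9 and M10, so the order depended on the denominator. Of the listed genes named above, *Ccl17*, *Ccl22* and *Itgax* were higher even with these scalings, with 3.30, 3.17 and 2.11 relative to macrophage markers (adjusted p = 1.12e-05, 3.52e-06 and 0.000192, edgeR) and 2.62, 2.46 and 1.39 relative to pan-leukocyte genes (adjusted p = 0.000169, 7.46e-05 and 0.00153).

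**Figure D4:**
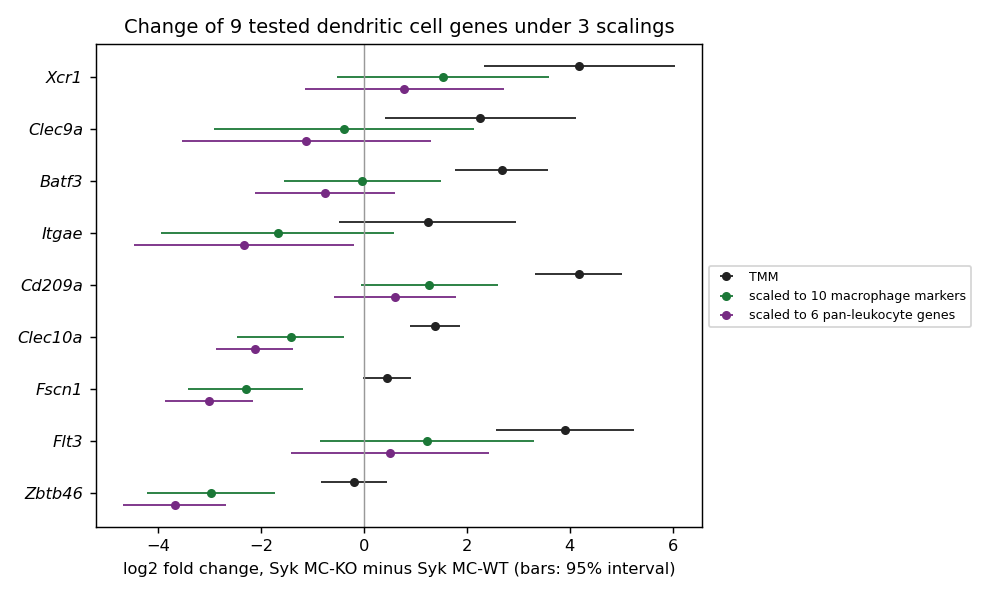
Log2 fold change (libraries labelled Syk MC-KO minus Syk MC-WT) of the 9 tested genes under TMM (black), scaling to 10 macrophage markers (green) and scaling to 6 pan-leukocyte genes (purple), with bars for 95% intervals. *Xcr1*, *Flt3* and *Cd209a* moved from about 4 to between 0.50 and 1.54, and *Zbtb46* from -0.19 to -2.97 and -3.67.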

How the data were processed

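PolyA-selected RNA of 4 TAM libraries was sequenced. The authors aligned the reads to the mm10 genome by STAR and quantified them with Salmon (versions 2.6.1d and 1.4.0 in the submitters' processing notes), and the deposited values are counts in whole numbers for each Ensembl gene, without normalization. How Salmon's estimates became whole numbers is not given in the sources used here. The labels give NovaSeq sequencing with paired reads of 150 bases and 2 libraries for each genotype, whereas the study's methods give HiSeq sequencing with single reads in triplicate. Symbols and positions came from GENCODE M21 on GRCm38 (54495 of 54532 rows matched). Promoter windows came from RefSeq (GRCm38.p6), where 8 of the 10 genes matched. Shared 31-base words were counted over annotated transcripts.

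Counts were analysed in R 4.3.3 with edgeR 4.0.16 (filterByExpr, TMM, glmQLFit and glmQLFTest, no covariate). TMM factors were 1.22 and 1.19 for M7 and M8 and 0.876 and 0.787 for M9 and M10. Standard errors and 95% intervals are those of single genes, not adjusted. The same steps were run on simulated data in which a small part of the genes changed. That run does not bear on a broad shift between libraries. Genotypes came from the labels. For 2 libraries against 2, an exact two-sided permutation p cannot go below 0.333, so the adjusted p-values depend on the variance model across genes. No set test was run.

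The 10 genes and all lists were chosen with earlier results of these data known. Named are the 10 genes, *Syk*, *Lyz1*, *Lyz2*, the paralogs of *Clec10a* and *Cd209a* and, of each dendritic cell list, the 4 other genes with the largest change among those past the threshold with at least 1 CPM, the 2 with the highest level, and genes not past it that ran against the list median. Alternatives were DESeq2 size factors, library size only, scaling to 10 macrophage or 6 pan-leukocyte genes, leaving out mitochondrial and 4 rRNA-like genes, no filter other than 1 count, a filter of 10 counts in every library, DESeq2 1.42.0 (Wald test), a minimum absolute log2 fold change of 1, and leaving out each library.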

Additional observations from a re-analysis of the deposited data

How the results depend on the processing

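Scaling moved most of the values below, and the cause was not tested. The 3729 higher and 2747 lower genes became 1677 and 5411 with library size only, 126 and 14312 relative to macrophage markers, and 62 and 15145 relative to pan-leukocyte genes. Library size only moved the median of all genes to -0.52, the Wald test of DESeq2 to -0.20 and keeping all genes with at least 1 count to -0.16. A minimum absolute log2 fold change of 1 left 2426 higher genes. Leaving out 1 library gave 1478 (without M8) to 5010 (without M10) higher and 807 (without M8) to 4745 (without M10) lower genes, with 2094 and 1226 without M7 and 4330 and 4498 without M9. Of the 10 dendritic cell genes, the 5 higher became 0 under both marker scalings, with 3 lower (macrophage) and 4 lower (pan-leukocyte), and 3 with at least 10 counts in every library, a filter that removes *Xcr1* and *Flt3*. Leaving out 1 library gave 5 to 7 higher (7 without M9, with *Clec9a* and *Fscn1*) and 0 lower. Relative to macrophage markers and to pan-leukocyte genes, the log2 fold change turned to -0.39 and -1.12 for *Clec9a*, -0.029 and -0.75 for *Batf3*, -1.42 and -2.12 for *Clec10a*, -2.30 and -3.01 for *Fscn1* and -1.67 and -2.33 for *Itgae*. *Syk* had -0.0060 and -0.70 (adjusted p = 0.992 and 0.0606, edgeR). *Fscn1* also turned with library size only (-0.10). Outside the marker scalings, 85 of 88 values of the 9 tested genes kept their direction and their side of the threshold. The 88 hold only genes still tested, so *Xcr1*, *Clec9a*, *Flt3* and *Itgae* are missing for the filter of 10 counts in every library. Keeping the side includes genes that stayed short of the threshold. With a gene of the cDC1 and a gene of the pDC list that had at most 3 counts in each Syk MC-WT library set to its lower bound, the medians of these lists were 2.26 and 2.20. Floors cover counting error only, and the low counts of *Clec9a*, *Itgae* and *Siglech* limit what could be detected. No paired analysis was possible because the genotypes share no replicate numbers.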
